A study of Coturnix japonica with 16 samples.

Results

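A set of 106 genes, RSAD2, CMPK2 and DDX60 of the antiviral response among them, stood at a far higher level in the liver of 1 solvent-dosed Japanese quail (Coturnix japonica) than in any of the 15 other birds sequenced beside it. The set was chosen by its own values. Estimated counts were summed per gene and scaled to a library total of 1000000 to give CPM values, and a gene was taken where solvent replicate 1 had at least 5 CPM and its log2(CPM + 0.5) lay at least 2 units above the highest of the 15 other birds. That difference is called the gap below. The rule took 106 of 20308 genes in the table, which is 1.11% of the 9586 genes with at least 5 CPM in solvent replicate 1. Because the rule used these values, the high levels of the 106 genes in solvent replicate 1 are a description and carry no test. Tests of dose and of covariation were made among the 15 other birds. The rule used the values of these birds too, as an upper bound on the highest of them. Counts of the 106 genes in these tests are therefore not free of the choice.

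The 16 livers came from quail aged 12 weeks, kept on short days and fasted before a single oral dose into the crop. Solvent replicate 1 and solvent replicates 2 to 6 received corn oil alone, 5 birds received ethinylestradiol at 0.5 mg/kg in corn oil, and 5 received 5 mg/kg. Ethinylestradiol is a synthetic estrogen. Every bird, the solvent birds included, was fasted and gavaged, and RNA was taken from the left liver lobe. The sex of the birds, any infection or vaccination and the time from dose to sampling are not known here.

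Interferons are cytokines that cells release after sensors recognise viral RNA or DNA. They bind paired receptor chains on the same or neighbouring cells, Janus kinases then phosphorylate STAT proteins, and STAT and IRF factors switch on a large group of interferon-stimulated genes, whose products block viral replication, degrade viral RNA or present antigen. The liver is a mixture of hepatocytes, macrophages, endothelial cells and lymphocytes, all of which can respond to interferon. The gene roles given below are known mainly from human and mouse.

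Solvent replicate 1 stood apart across the transcriptome, beyond the 106 genes. By library total, it had the highest level of the 16 birds in 40.7% of its genes with at least 5 CPM. The other birds had 1.12% to 18.1% over their own genes of that level. Correlations of log2 CPM over 11843 genes were 0.900 to 0.927 in pairs that held this bird and 0.935 to 0.971 in all other pairs. Its median gene lay 0.40 log2 units above the median of the other birds by library total, and scaling by the trimmed mean of M-values (TMM) shifted this median by -0.40. With TMM its share of highest genes was 17.4%, and the shares of the other birds were not computed. Under TMM scaling all 106 genes still had their highest level in this bird, with a smallest gap of 1.59, and 67 genes met the rule, all of them among the 106. Library totals ran from 15173021 to 46192737 counts, with 33262967 counts for solvent replicate 1, and 5 other birds had larger totals. Albumin and other hepatocyte genes were abundant in all 16 libraries, with summed levels of 16 hepatocyte markers of 113272 CPM in solvent replicate 1 and 121255 to 191408 CPM in the other birds.

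Together the 106 genes made up 2.80% of the counts of solvent replicate 1 (95% Wilson interval 2.797% to 2.808%, counting error only), against 0.104% to 0.210% in the 15 other birds. The gap ran from 2.002 to 6.68 log2 units with a median of 2.74. It was at least 3 in 46 genes and at least 4 in 16. In 90 of the 106 genes the gap was larger than the whole range of the 15 other birds on the same scale. The rule held every gap at 2 or more and the median range was 1.65, so the choice largely sets this count. Levels in solvent replicate 1 ran from 5.02 to 3981 CPM. Most of these genes were not silent elsewhere, since 70 had a median of at least 1 CPM in the other birds and 23 had a median of at least 10 CPM. Only LOC107313689, a long noncoding RNA gene at 5.41 CPM in solvent replicate 1, had no counts in any of the 15 other birds, where 3 counts would have been 0.0649 to 0.198 CPM. CPM values are not corrected for transcript length, so levels are compared between birds and not between genes.

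**Figure D1:**
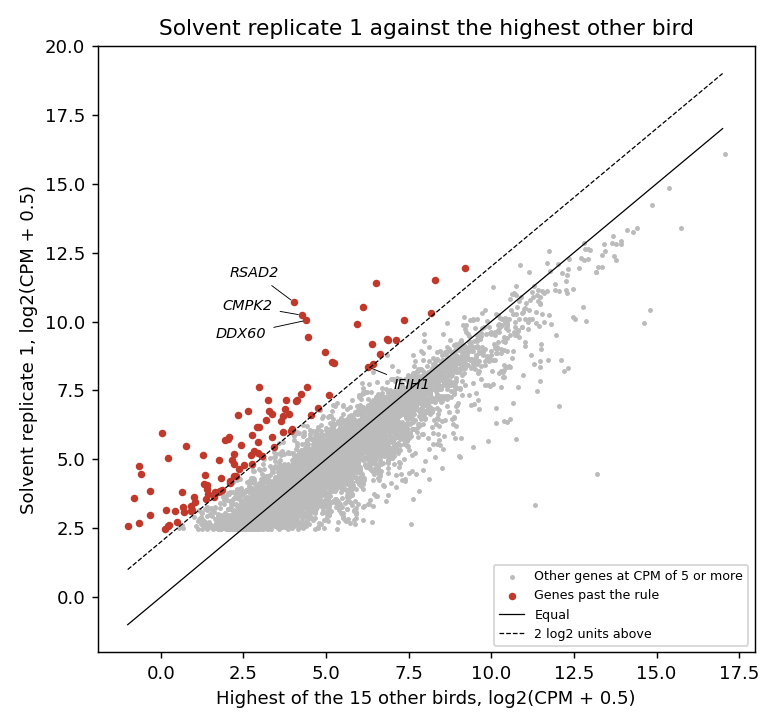
Level of each gene with at least 5 CPM in solvent replicate 1 (y axis, log2(CPM + 0.5)) against its highest level among the 15 other birds (x axis, same scale); red points are the 106 genes that met the rule, the solid line marks equal levels and the dashed line lies 2 log2 units above it. The red points form a band above the main cloud, with RSAD2, CMPK2 and DDX60 5.64 to 6.68 units above the highest other bird.

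By name, 60 of the 106 genes carry a symbol, 42 carry only a LOC identifier, and 4 have no entry in the name table. Of the genes with symbols, 16 belong to the lists of RNA sensors, interferon signalling factors and interferon-induced effectors described below. CD3E is on the list of lymphocyte markers, and the others are on none of the lists. The word antiviral thus applies to a part of the set. The 46 genes without a symbol held 68.5% of the summed CPM of the 106 genes in solvent replicate 1, and no role can be given for them here. Their gaps ran from 2.02 to 5.93, the largest in LOC107316227, at 61.9 CPM in solvent replicate 1 against 0.0489 to 0.525 CPM in the other birds. Among them, LOC107310625 stood at 3981 CPM, LOC107323845 at 2940.3 CPM and LOC107309939 at 2692 CPM in solvent replicate 1.

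RSAD2 encodes viperin, a radical SAM enzyme that turns CTP into a chain-terminating nucleotide. Its level was 1669 CPM in solvent replicate 1, from 55509 counts. In the other solvent birds, replicates 2 to 6, it was 4.17, 2.10, 7.09, 3.20 and 6.33 CPM. At 0.5 mg/kg it was 5.07, 7.32, 1.74, 6.26 and 15.8 CPM, and at 5 mg/kg 5.36, 6.93, 6.37, 3.16 and 1.45 CPM. Solvent replicate 1 was 106-fold above the next bird, 0.5 mg/kg replicate 5, and the 3 dose groups overlapped once it was set aside. This gap of 6.68 log2 units was the largest of the set.

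CMPK2, the neighbouring gene on chromosome 3, encodes a mitochondrial nucleotide kinase that phosphorylates CMP and UMP. It stood at 1200.3 CPM in solvent replicate 1, against 10.5, 6.66, 6.72, 5.95 and 18.8 CPM in solvent replicates 2 to 6. The 0.5 mg/kg birds had 6.10, 10.2, 8.08, 7.97 and 16.5 CPM and the 5 mg/kg birds 10.9, 10.3, 6.63, 10.7 and 7.04 CPM. The next bird after solvent replicate 1 was solvent replicate 6, which lay 63.9-fold lower.

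DDX60 encodes a helicase-like protein that promotes signalling by cytosolic RNA sensors. Its level was 1055 CPM in solvent replicate 1, against 14.9, 12.7, 4.72, 6.23 and 11.0 CPM in solvent replicates 2 to 6. Birds at 0.5 mg/kg had 20.7, 16.5, 1.74, 5.43 and 9.30 CPM, and those at 5 mg/kg had 4.56, 4.07, 14.6, 4.17 and 9.78 CPM. Solvent replicate 1 was 51.0-fold above the next bird, 0.5 mg/kg replicate 1. For these 3 genes a different bird came next each time.

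**Figure D2:**
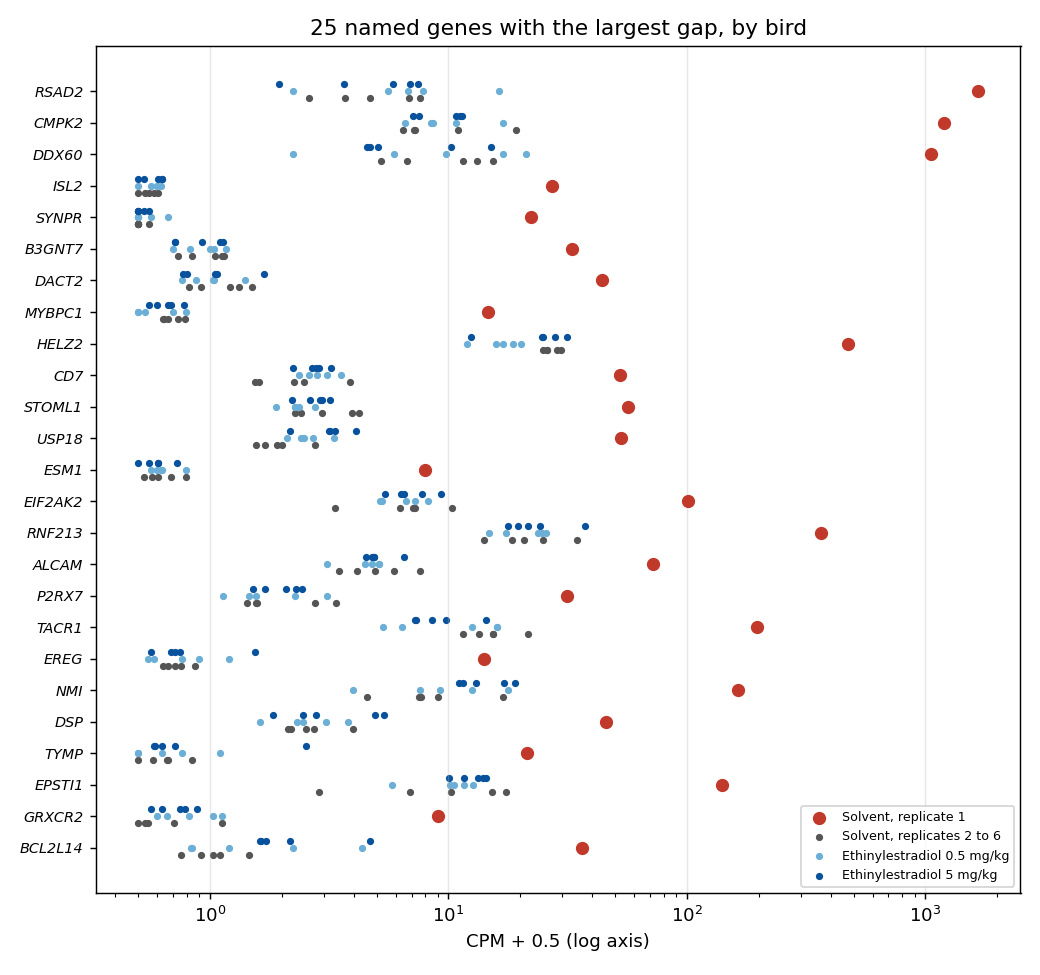
CPM + 0.5 on a log axis for the 25 genes with a symbol and the largest gap, ordered from the top by gap; each dot is 1 bird, red for solvent replicate 1, grey for solvent replicates 2 to 6, light blue for 0.5 mg/kg and dark blue for 5 mg/kg. In every row the red dot lies to the right of the 15 other birds, by 2.96 to 6.68 log2 units, and the other colours overlap except for solvent and 0.5 mg/kg in HELZ2 and solvent and 5 mg/kg in BCL2L14.

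Among the sensors and signalling factors that met the rule, IFIH1 encodes MDA5, a sensor of long double-stranded RNA. It stood at 325 CPM in solvent replicate 1, against 18.3 to 77.3 CPM (median 49.2) in the 15 other birds. ZNFX1, a helicase that senses viral RNA at mitochondria, stood at 640.2 CPM in solvent replicate 1 and at 26.7 to 116 CPM (median 38.4) in the others. USP18, a protease that removes ISG15 and restrains interferon receptor signalling, stood at 52.3 CPM, against 1.05 to 3.602 CPM (median 1.98) in the others. IFIH1 was thus well expressed in all 16 livers, while USP18 was under 4 CPM in 15.

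The remaining genes of the set sorted by hand as effectors covered RNA binding, ubiquitin ligation and ADP-ribosylation. HELZ2, a helicase and transcriptional coactivator, stood at 473 CPM in solvent replicate 1 and at 11.5 to 30.8 CPM (median 24.3) in the 15 other birds. EIF2AK2 encodes PKR, the kinase that halts translation on sensing double-stranded RNA, and stood at 101 CPM, against 2.85 to 9.82 CPM (median 6.14). RNF213, a large ubiquitin ligase, stood at 364 CPM, against 13.6 to 37.0 CPM (median 21.1). In all 3 genes the lowest of the 15 other birds had detectable expression and the ranges lay far below solvent replicate 1. NMI, which binds STAT proteins, stood at 163 CPM, against 3.47 to 18.6 CPM (median 10.5), and EPSTI1, an interferon-induced protein of macrophages and epithelia, stood at 140.1 CPM, against 2.36 to 16.9 CPM (median 11.1). PML, which organises nuclear bodies, had a gap of 2.70. The ADP-ribosyltransferase family members PARP9 and PARP14 had gaps of 2.48 and 2.26, and CMTR1, which methylates the mRNA cap, had a gap of 2.07. The last of these stood at 97.5 CPM in solvent replicate 1, against 13.4 to 22.8 CPM in the others. CMTR1 is not on the effector list read below, whereas CD274, given with the leukocyte genes, is on it.

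A further group is known from lymphocytes, dendritic cells and other leukocytes. CD7, a surface protein of T and NK cells, stood at 52.0 CPM in solvent replicate 1 and at 1.04 to 3.37 CPM (median 2.19) in the 15 other birds. ALCAM, an adhesion protein that binds CD6 on T cells, stood at 71.6 CPM, against 2.59 to 7.07 CPM (median 4.35). P2RX7, an ATP-gated channel of macrophages, stood at 31.1 CPM, against 0.636 to 2.87 CPM (median 1.20). All 15 of the genes sorted by hand into this group had gaps between 2.002 and 3.76. They include the T-cell receptor subunit CD3E, at 11.2 CPM against 0.108 to 2.07 CPM, the checkpoint ligand CD274 (PD-L1), at 33.9 CPM against 1.47 to 7.84 CPM, and the fractalkine receptor CX3CR1, at 7.94 CPM against 0.273 to 1.12 CPM. TNFRSF18 (GITR), IKZF2 (Helios), LAMP3, LY75 (DEC-205), the granule proteoglycan SRGN, IL18R1, BCL2A1, SH3KBP1 and the Notch glycosyltransferase MFNG complete it. In bulk liver a larger number of cells of a type and more RNA per cell cannot be told apart.

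Other genes of the set are known from tissues or processes away from antiviral defence. ISL2, a LIM-homeodomain factor of motor neurons, stood at 26.8 CPM in solvent replicate 1 and at 0 to 0.131 CPM (median 0.0842) in the 15 other birds. SYNPR, a synaptic vesicle protein, stood at 21.7 CPM, against 0 to 0.166 CPM with no counts in 10 of the 15. MYBPC1, a myosin-binding protein of slow muscle, stood at 14.1 CPM, against 0 to 0.294 CPM (median 0.164). These 3 genes were at or near 0 in all other livers. GRXCR2, known from the hair cells of the inner ear, stood at 8.54 CPM, against 0 to 0.623 CPM (median 0.205).

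Glycosyltransferase B3GNT7 stood at 32.5 CPM in solvent replicate 1, against 0.198 to 0.664 CPM (median 0.497) in the 15 other birds. DACT2, a modulator of Wnt and TGF-beta signalling, stood at 43.7 CPM, against 0.266 to 1.18 CPM (median 0.538). STOML1, a stomatin-like membrane protein, stood at 56.1 CPM, against 1.38 to 3.71 CPM (median 2.13). Unlike ISL2 and SYNPR, these 3 genes had counts in every bird. The substance P receptor TACR1 stood at 196 CPM, against 4.80 to 21.0 CPM (median 12.0), and the desmosomal protein DSP stood at 45.3 CPM, against 1.12 to 4.86 CPM (median 2.02).

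Among genes of secreted factors and nucleoside metabolism, EREG, a ligand of the EGF receptor, stood at 13.6 CPM in solvent replicate 1 and at 0.0489 to 1.05 CPM (median 0.215) in the 15 other birds. ESM1, an endothelial proteoglycan, stood at 7.49 CPM, against 0 to 0.294 CPM (median 0.107). TYMP, which cleaves thymidine, stood at 20.8 CPM, against 0 to 2.04 CPM (median 0.128). The next bird for both EREG and TYMP was 5 mg/kg replicate 3. BCL2L14, a member of the BCL2 family, stood at 35.8 CPM, against 0.253 to 4.18 CPM (median 0.957).

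The rest of the genes with symbols had gaps under 2.7. ARG2, the mitochondrial arginase, stood at 64.5 CPM in solvent replicate 1 and at 0.984 to 14.9 CPM (median 4.15) in the 15 other birds. The phosphatase gene DUSP15 stood at 117 CPM, against 10.2 to 26.7 CPM (median 14.4). ITPR3, a calcium release channel, stood at 34.1 CPM, against 1.83 to 7.86 CPM (median 5.74). The others are the phosphatase PTPRR, the glutamate transporter SLC1A2, CACHD1, the protease ADAMTS8, EPB41L4A, the inhibitor of helix-loop-helix factors ID4, the chromatin assembly subunit CHAF1B, the rod arrestin SAG, the sarcomere protein TCAP and the meiotic helicase HFM1, at 6.19 to 36.9 CPM in solvent replicate 1.

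The rule's threshold fell within a continuous run of values. Just inside it were MFNG with a gap of 2.002, TRANK1 and LOC107305824 with 2.02 each, SRGN with 2.04 and CD274 with 2.05. Just outside were NCOA7 and PIGA, both with 1.997, PARP8 with 1.99, LOC107310602 with 1.99 and LOC107323924 with 1.97. NCOA7 stood at 47.7 CPM in solvent replicate 1, against a highest other value of 11.6 CPM.

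When each of the 15 other birds was put in the place of solvent replicate 1, the same rule took 0 to 14 genes per bird, with a median of 1. It took none in 7 birds and 1 gene in 5 birds. The larger counts were 14 genes in 5 mg/kg replicate 1, 10 in 5 mg/kg replicate 5 and 7 in 0.5 mg/kg replicate 3. In the opposite direction, 2 genes in solvent replicate 1 lay at least 2 log2 units below the lowest of the others while every other bird had at least 5 CPM. These were MYOC, at 0.722 CPM against 9.56 to 33.2 CPM, and LOC107307208, at 0.150 CPM against 8.38 to 28.7 CPM. The same downward count was 0 to 3 in the other birds.

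**Figure D3:**
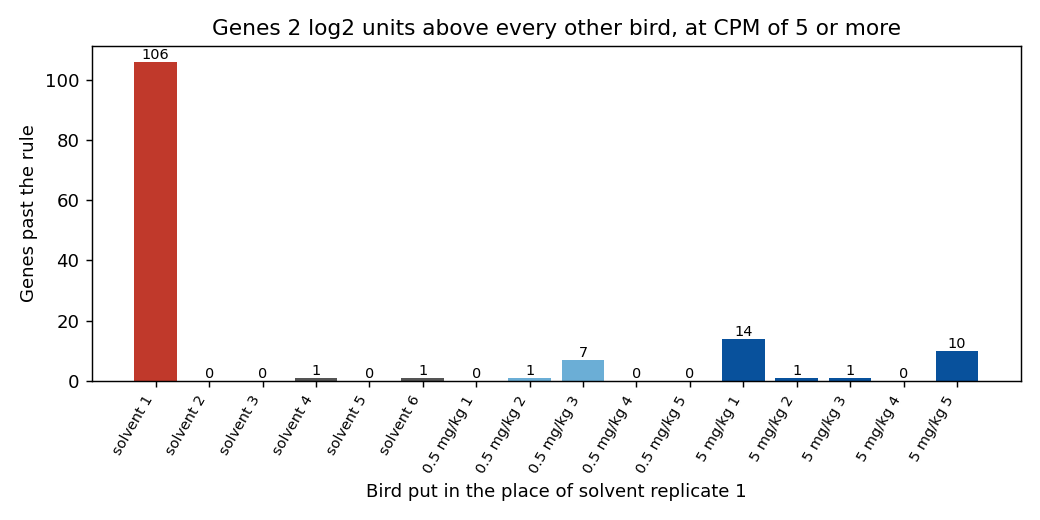
Number of genes (y axis) that met the rule when each of the 16 birds (x axis) was put in the place of solvent replicate 1; red is solvent replicate 1, grey the other solvent birds, light blue 0.5 mg/kg and dark blue 5 mg/kg. The bar of solvent replicate 1 reaches 106, and the next highest, 5 mg/kg replicate 1, reaches 14.

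The interferon pathway was then read list by list, with the difference between solvent replicate 1 and the median of the 15 other birds per gene. Over all 18906 detected genes, 31.1% were highest in solvent replicate 1, 3.08% were at least 1 log2 unit above the highest other bird, and the median difference was 0.26 (0.01 under TMM). Over the 9586 genes with at least 5 CPM in solvent replicate 1, these values were 40.7%, 4.24% and 0.40 (-0.002 under TMM). Each list is to be read against both sets of values. Counts of highest genes and summed levels below use library totals. TMM divides the levels of solvent replicate 1 by 1.30 and those of the others by 0.876 to 1.13. The sums were not computed under TMM. Under TMM, 15.1% of detected genes and 17.4% of those with at least 5 CPM were highest. For the RNA sensing, receptor, signalling and effector lists below, the TMM counts were 10 of 17, 3 of 7, 11 of 21 and 20 of 32. In the same order, 2, 0, 2 and 12 genes of these lists met the rule, which fixes them as highest by library total. List counts and list medians include them. Lists and genes were known from earlier results of the same data, and no list was tested.

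Of 17 genes for RNA sensing and its adaptors, 13 were highest in solvent replicate 1 and 5 lay at least 1 log2 unit above every other bird, with a median difference of 1.47 (1.07 under TMM). The largest differences were in ZNFX1 at 4.04, IFIH1 at 2.71 and TLR3, the endosomal receptor for double-stranded RNA, at 2.55. TLR3 stood at 48.9 CPM in solvent replicate 1, against 4.69 to 12.4 CPM in the others. The smallest were in MAVS at 0.01, TBK1 at 0.24 and TICAM1 at 0.41, an adaptor, a kinase and an adaptor that relay the sensors' signal, and all 3 were below 0 under TMM. MAVS stood at 38.8 CPM in solvent replicate 1, against 27.0 to 56.2 CPM, within the range of the other birds. The rule chose ZNFX1 and IFIH1 for their high level in this bird, and it took neither TLR3 nor MAVS. Without the 2 chosen genes, the list summed to 515 CPM in solvent replicate 1, against 153 to 258 CPM in the others.

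Of 7 interferon and receptor genes in the table, 6 were highest in solvent replicate 1, 1 lay at least 1 log2 unit above every other bird, and the median difference was 0.69 (0.29 under TMM). IFNAR2 had the largest difference, 2.21, at 93.6 CPM in solvent replicate 1 against 17.5 to 29.6 CPM. IFNAR1, the other chain of the type I receptor, followed with 1.22, at 30.7 CPM against 10.03 to 15.1 CPM. The only interferon among the 7 was IFNG, the type II interferon, with a difference of 0.97, at 0.481 CPM against 0 to 0.124 CPM. IFNLR1, IFNGR2 and IFNGR1 had the smallest differences, 0.27, 0.36 and 0.58, and that of IFNLR1 turned to -0.09 under TMM. For this list 18 symbols were sought, alternative names included, and 7 had a match in the name table. No symbol sought for a type I or type III interferon was among the matches, and genes without a symbol were not searched for them.

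Of 21 signalling genes, 14 were highest in solvent replicate 1, 7 lay at least 1 log2 unit above every other bird, and the median difference was 0.88 (0.43 under TMM). USP18 at 4.41 and IRF7, the factor that amplifies type I interferon, at 2.78 were among the largest differences. IRF7 stood at 123 CPM in solvent replicate 1, against 10.3 to 38.4 CPM in the others. Among the smallest were JAK1 at -0.13 and the phosphatase PTPN2 at -0.12. JAK1 stood at 107 CPM, against 83.9 to 183 CPM, so this kinase lay within the range of the other birds. The rule chose 2 of the 21 genes, USP18 among them, which fixes their place among the 14 and the 7. Without the 2 chosen genes, the list summed to 1124 CPM in solvent replicate 1, against 597 to 1002 CPM in the others. These sums use library totals and lie close enough that the order may not hold under TMM, where the factor of this bird was 1.30.

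Of 32 effector genes, 22 were highest in solvent replicate 1, 16 lay at least 1 log2 unit above every other bird and 12 met the rule, with a median difference of 1.54 (1.15 under TMM). Their summed level was 6227 CPM in solvent replicate 1, against 476 to 656 CPM in the others. The rule chose 12 of these genes for their high level in this bird, which largely sets that contrast. It also fixes the place of these 12 among the 22 and the 16 genes counted above, and the median includes them. The 20 other effectors summed to 778 CPM, against 362 to 513 CPM. For this list 86 symbols were sought, alternative names included, and 32 had a match in the name table. Levels of MX1, OASL and IFIT5 are not given here. Antigen presentation had a larger median, 2.22 (1.84 under TMM), although none of its 9 genes met the rule. Of these, 8 were highest in solvent replicate 1 and 6 by at least 1 log2 unit. The invariant chain CD74 stood at 627 CPM in solvent replicate 1, against 63.6 to 252 CPM, and the peptide transporter subunit TAP1 at 19.1 CPM, against 1.05 to 4.72 CPM.

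Inflammatory genes that are not on the interferon lists above showed other values, though some of them may respond to interferon too. Of 25 cytokine, chemokine and NF-kB genes, 9 were highest in solvent replicate 1, with a median difference of 0.73 (0.35 under TMM), and 7 other birds had a larger summed level. At least 1 log2 unit above every other bird were 3 of the 25. The largest differences were in TNFAIP3, an inhibitor of NF-kB, at 2.70, at 19.4 CPM against 1.69 to 6.07 CPM, and in IL15, a cytokine of T and NK cells, at 2.13, at 3.88 CPM against 0.128 to 1.08 CPM. IL6 stood at 0.0601 CPM, against 0 to 0.161 CPM, and IL22 was at 0. Of 13 acute-phase genes, whose products the liver secretes in inflammation, none was highest in solvent replicate 1 and all 13 lay below the median of the others, with a median difference of -0.64 (-1.07 under TMM). Their summed level was 28055 CPM in solvent replicate 1, and 14 of the 15 other birds had more. Of 18 heat-shock and hypoxia genes, 6 were highest in solvent replicate 1, and the summed level was 15402 CPM against 2550 to 8472 CPM. The endoplasmic reticulum chaperone HSPA5, at 4234 CPM against 301 to 1885 CPM, had the largest difference of that list, 2.41.

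**Figure D4:**
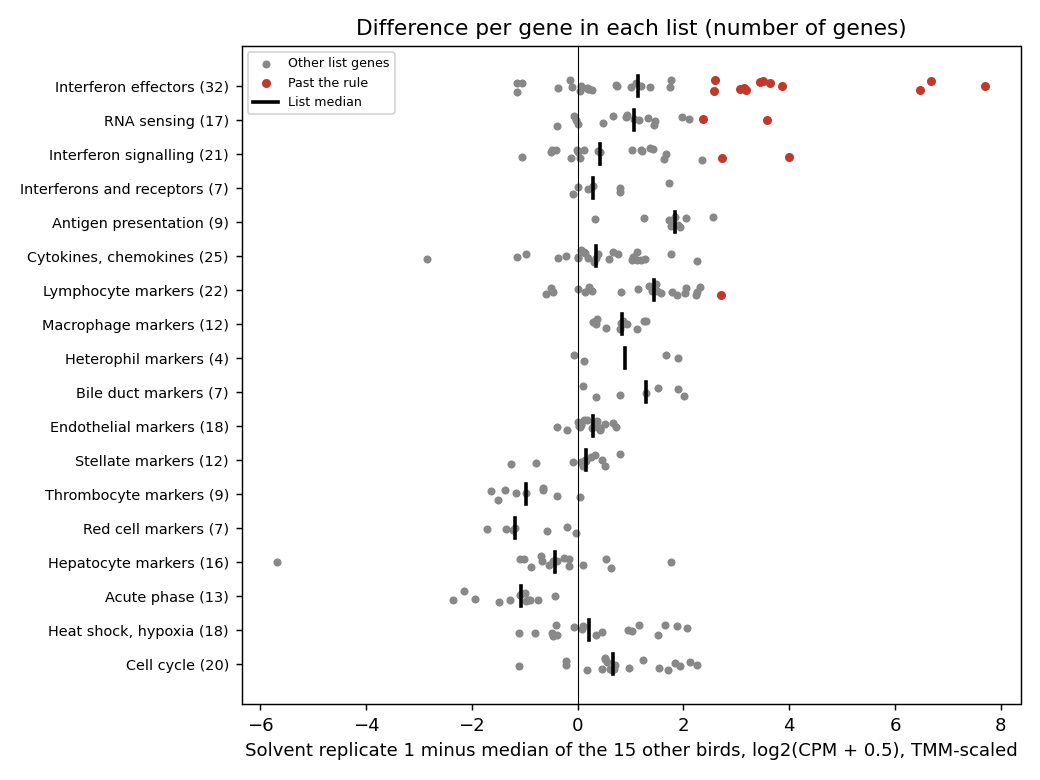
Difference between solvent replicate 1 and the median of the 15 other birds on the TMM-scaled log2(CPM + 0.5) scale (x axis) for each gene of 18 lists (rows, number of genes in brackets); red points met the rule, grey points are other genes of the list, and black bars are list medians. Antigen presentation, lymphocyte, bile duct, effector and RNA sensing medians lie above 1, while the red cell and acute-phase medians lie below -1. The medians include the red points, which the rule chose for their high level in this bird.

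Several cell type markers were high beside the 106 genes. Of 22 lymphocyte markers, 15 were highest in solvent replicate 1, with a median difference of 1.74 (1.44 under TMM) and a summed level of 180.0 CPM against 23.0 to 77.0 CPM in the other birds. Only 6 of the 22 had at least 5 CPM in solvent replicate 1. The T-cell genes CD3E, CD5, CD28 and LCK were among the high ones, and the rule chose CD3E for its high level in this bird. Without CD3E the list summed to 169 CPM, against 21.9 to 75.8 CPM in the other birds. Of the genes of B and plasma cells, JCHAIN stood at 58.2 CPM against 1.77 to 34.3 CPM and BLK at 1.47 CPM against 0 to 0.580 CPM, CD79B stood at 0.451 CPM against 0.0216 to 0.583 CPM, and PAX5 was at 0. Of 12 macrophage markers, 11 were highest in solvent replicate 1, and 1 of them by at least 1 log2 unit. Their summed level was 687 CPM against 194 to 406 CPM, with a median difference of 1.26 (0.84 under TMM). Of 7 bile duct markers, 5 were highest, 2 by at least 1 log2 unit, with 207 CPM against 61.1 to 150 CPM. Their median difference was 1.65 (1.28 under TMM). Under TMM, 8 macrophage and 3 bile duct markers were highest, none by at least 1 log2 unit.

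The other lists lay above, near or below the values over all genes. Of 18 endothelial markers, 7 were highest in solvent replicate 1, none by at least 1 log2 unit, with 353 CPM against 144 to 266 CPM and a median difference of 0.61 (0.29 under TMM). None of 7 red cell and none of 9 thrombocyte markers were highest in solvent replicate 1, with median differences of -0.66 and -0.62. The 12 stellate cell markers summed to 723 CPM, against 361 to 795 CPM. Of 4 heterophil markers, 2 were highest, with 16.4 CPM against 2.19 to 12.6 CPM, and of 20 cell cycle genes 4 were highest, with 189 CPM against 90.3 to 245 CPM. Over 16 hepatocyte markers the median difference was 0.04 with library totals and -0.43 with TMM, so its sign depended on the scaling. The part of these cell type markers, and of the bird's wider departure from the others, in the levels of the 106 genes was not tested.

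On the chromosomes, 100 of the 106 genes could be placed by the gene order of the assembly Coturnix japonica 2.1. Of these, 22 (22%) had another of the set within 5 genes, against 399 of 8933 other genes with at least 5 CPM (4.47%). They formed 8 runs. CMPK2 and RSAD2 are adjacent on chromosome 3, and PARP9 and PARP14 lie close together on chromosome 7. A run of 4 on chromosome 10 holds PML, STOML1, LOC107318588 and LOC107318591, and a run of 4 on chromosome 5 holds B4GALNT4, LOC107314285, LOC107314288 and LOC107314287. PML and STOML1 overlap, and unnamed neighbours may be near-identical copies, so the split of reads between such genes is uncertain. MYBPC1 and CHPT1, an enzyme of phosphatidylcholine synthesis, lie next to each other on chromosome 1. Of the 51 genes with several transcript rows, 17 had 2 or more rows past the gap and 31 had 1, while in CMTR1, ID4 and LOC107323611 the gap was reached only by the sum.

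Setting solvent replicate 1 aside, the 106 genes still varied between the 15 other birds, by a median range of 1.65 log2 units per gene, at a median level of 2.31 CPM where counts are few. No single bird came next after solvent replicate 1. Each of the 15 was the next highest for at least 1 gene, most often 5 mg/kg replicate 3 (18 genes), solvent replicate 6 (15 genes) and 5 mg/kg replicate 5 (14 genes). Summed levels of the set were 1040 to 2100 CPM over these birds, with the highest in 5 mg/kg replicate 3, where 82 of the 106 genes lay above the median of the 15. The lowest such count was 26, in solvent replicate 4. The matching shares over all genes were not computed, so these counts may reflect traits of whole libraries.

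Dose was tested in these 15 birds with edgeR's quasi-likelihood test over all genes with Benjamini-Hochberg adjustment. For genes of the set the rule had capped the highest of these birds, here and in the slope fit below. The effect of that cap on their counts was not tested. At 5 mg/kg against solvent, 3 of 13612 genes passed an adjusted p of 0.05 (0.022%), and none of the 92 genes of the set that could be tested was among them, the other 14 having too few counts in these birds. The 3 were PGBD5, LOC107305801 and BBS2, all higher at 5 mg/kg. Without adjustment, 15 of the 92 had p under 0.05, against 9.61% over all genes. Of the 15, 12 were higher at 5 mg/kg and 3 were lower, against 5.41% higher and 4.2% lower over all genes. With DESeq2, 170 genes passed (1.18%), CD274 and LOC107308660 among them. Of the 92, 54 lay above 0, with a median log2 difference of 0.12, against 0.01 over all genes. Without 5 mg/kg replicate 3 that median was -0.03, with 45 of 94 above 0.

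CD274 had the lowest p of the set in this comparison. Its levels were 3.52, 4.65, 4.07, 2.15 and 7.84 CPM at 5 mg/kg, against 2.41, 1.93, 1.82, 1.91 and 1.83 CPM in solvent replicates 2 to 6. The log2 difference was 1.14 (SE 0.28), with an adjusted p of 0.175 by edgeR's quasi-likelihood test and 0.0124 by DESeq2. Only 1 bird at 5 mg/kg lay within the solvent range. LOC107308660, with no known role here, averaged 2.23 ± 1.54 CPM at 5 mg/kg and 0.548 ± 0.305 CPM in the other solvent birds (SD, n = 5 each), with adjusted p of 0.177 by edgeR and 0.0113 by DESeq2.

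The 3 leading genes did not pass in either dose comparison. RSAD2 averaged 4.65 ± 2.30 CPM at 5 mg/kg and 4.58 ± 2.09 CPM in the other solvent birds (SD, n = 5 each), a log2 difference of 0.06 (SE 0.52; edgeR adjusted p = 0.980). CMPK2 averaged 9.11 ± 2.09 CPM at 5 mg/kg and 9.72 ± 5.37 CPM in the other solvent birds, a difference of -0.06 (SE 0.32; edgeR adjusted p = 0.967). For DDX60 the difference was -0.41 (SE 0.54; edgeR adjusted p = 0.850). In each case the standard error was larger than the difference, so a change of moderate size cannot be told from none.

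At 0.5 mg/kg against solvent, PGBD5 alone of 13612 genes passed (0.00735%), and none of the 92 genes of the set did. Without adjustment, 5 of the 92 had p under 0.05, against 6.49% over all genes. Of the 5, 4 were higher and 1 lower, against 3.39% higher and 3.1% lower over all genes. DESeq2 called 36 genes (0.264%) with none of the set among them. Single birds moved these counts, to 1 higher and 2 lower without 0.5 mg/kg replicate 5 or without solvent replicate 5, and to 8 higher and 1 lower without solvent replicate 6. They were 7 higher and 1 lower without 0.5 mg/kg replicate 2, 0.5 mg/kg replicate 4 or 5 mg/kg replicate 4. The median log2 difference of the 92 was 0.05, against -0.01 over all genes, and it was -0.01 without solvent replicate 4 or 0.5 mg/kg replicate 5 and -0.03 without 0.5 mg/kg replicate 3. RSAD2 differed by 0.79 (SE 0.52; edgeR adjusted p = 0.879), CMPK2 by 0.16 (SE 0.32; adjusted p = 0.983) and DDX60 by 0.24 (SE 0.54; adjusted p = 0.985). Both dose comparisons share the 5 solvent birds.

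**Figure D5:**
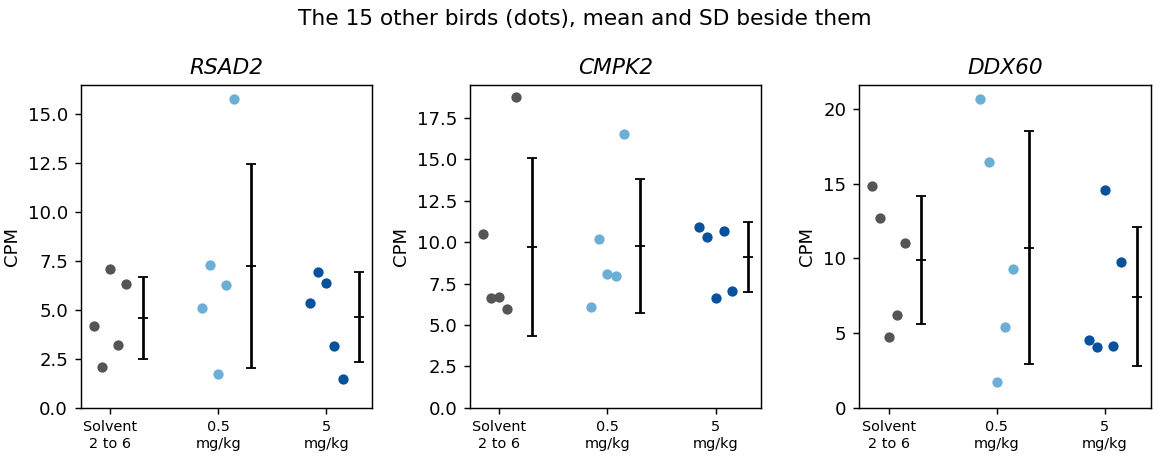
Levels of RSAD2, CMPK2 and DDX60 in CPM (y axes, linear) in solvent replicates 2 to 6 and in the birds at 0.5 mg/kg and 5 mg/kg (x axes); dots are birds, and bars show the mean and SD of 5 birds. The 3 groups overlap in each panel, with highest values of 15.8 CPM for RSAD2, 18.8 CPM for CMPK2 and 20.7 CPM for DDX60.

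Leaving solvent replicate 1 in the solvent group changed the dose comparisons of the set. All 97 of its testable genes then had negative differences at both doses, a direction that the choice of the genes fixes, with medians of -1.44 at 5 mg/kg and -1.49 at 0.5 mg/kg. RSAD2 then differed by -5.51 at 5 mg/kg and by -4.78 at 0.5 mg/kg. Even so, none of the 97 passed edgeR's adjusted threshold in either comparison, while 6 (0.0436%) and 0 (0%) of all genes did. With an unadjusted p under 0.05 there were 41 and 45 of the 97, counts that rest on the values the rule chose and are no test of these genes.

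A last comparison asked which genes followed RSAD2 among the 15 birds, with the slope on log2 CPM of RSAD2 in a model that also held dose group. None of 13611 genes passed edgeR's adjusted threshold (0%), 687 (5.05%) had an unadjusted p under 0.05, and DESeq2 called 12 (0.0664%). Of the 91 genes of the set tested, 11 had an unadjusted p under 0.05, 8 with positive and 3 with negative slopes, against 2.38% and 2.67% over all genes. Without 0.5 mg/kg replicate 5, the bird with the highest RSAD2, 3 were positive and 7 negative, with a median slope of -0.07 over 93 genes. Without 5 mg/kg replicate 3 they were 8 and 9, and without 0.5 mg/kg replicate 3 they were 13 and 1. Leaving out any other single bird kept more positive than negative slopes among those with an unadjusted p under 0.05. With CMPK2 in place of RSAD2 they were 12 and 3, with DDX60 1 and 1, and with the rank of RSAD2 5 and 1. The median slope of the 91 was 0.01. The balance of directions thus rested in part on single birds and on the gene followed.

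LOC107319648 had the lowest p of the set here, with a slope of 0.69 (SE 0.16; adjusted p = 0.807 by edgeR, 0.04998 by DESeq2). CMPK2 had a slope of 0.33 (SE 0.13; edgeR adjusted p = 0.932), IFIH1 of 0.26 (SE 0.11) and HELZ2 of 0.19 (SE 0.09), all with the same adjusted p of 0.932. DDX60, with 0.13 (SE 0.29), was not among the 11. Over all genes the 5 lowest p values belonged to VNN1, LOC107322378, LAT2, WDR90 and LOC107308812, none of the set, with adjusted p of 0.306 to 0.450. Their slopes were 0.44, -1.22, -0.75, -0.49 and 0.56.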

How the data were processed

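Per the submitters' processing notes, kallisto made the deposited table of estimated counts, 1 row a transcript; its version, and the transcriptome and build, were not given in the sources used here. These deposited estimated counts (47418 rows) were summed per NCBI gene number to 20308 genes, of which 18900 matched names in the table of the assembly Coturnix japonica 2.1, used for names, chromosomes and gene order only. CPM used column totals. For tests, sums were rounded to whole counts and fitted in edgeR 4.0.16 (R 4.3.3; filterByExpr, TMM, quasi-likelihood) over the 15 libraries without solvent replicate 1, with Benjamini-Hochberg adjustment over all genes; the common dispersion was 0.106. DESeq2 1.42.0 was an alternative. RSAD2 for the slope was log2 CPM with a prior count of 2. The procedure was tested on simulated data. Each bird is 1 library, and no 2 libraries were near-identical. The named genes are RSAD2, CMPK2, DDX60, the 25 genes with symbols and the largest gaps, those just inside and outside the threshold, calls in a fit, the 5 lowest p in the slope fit, and the 3 largest and smallest differences of 3 lists; other genes, and the sorting of genes by role, were chosen after their values were seen. Members and lists were chosen with earlier results of these data known. P-values measure the spread between these birds. No promoter or protein sequence was used here. A few genes that this rule names are left unreported.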

Additional observations from a re-analysis of the deposited data

Results flagged for a closer look

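A bird was singled out by the distance to its nearest neighbour, as a fraction of its group's range. The threshold was Dixon's 95% critical value (0.625 for 6 birds, 0.71 for 5). For normally distributed values, chance exceeds it in about 1 in 20 groups. The ratios here use CPM on the linear scale, where that rate need not hold. Solvent replicate 1 was singled out in all 106 genes of the set, as the rule fixes. Among the other groups, 1 bird stood apart in 12 of these genes at 0.5 mg/kg, 7 times replicate 3, and in 11 at 5 mg/kg, 4 times each replicate 3 and replicate 5. These are 11.3% and 10.4% of the set, against 11.4% and 13.6% of all 18906 detected genes and 5.83% and 7.86% of the 9586 genes with at least 5 CPM in solvent replicate 1.

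For summed list levels in the solvent group, replicate 1 was highest and apart for RNA sensing (ratio 0.937), interferons and receptors (0.841), interferon signalling (0.872), interferon effectors (0.969), antigen presentation (0.922), heat shock and hypoxia (0.696), the cell cycle (0.669), and lymphocyte (0.911), macrophage (0.712) and bile duct markers (0.724). The sums of the RNA sensing, signalling, effector and lymphocyte lists hold genes that the rule chose for this bird. Without those genes, the ratios were 0.813, 0.725, 0.658 and 0.908, in a calculation added after seeing the data, and solvent replicate 1 remained highest and apart in these 4 lists. All ratios here use CPM by library total and were not computed under TMM, where the factor of this bird was 1.30. By library total, solvent replicate 1 was highest in 40.7% of its genes with at least 5 CPM. The share of all genes in which it stood apart within the solvent group was not computed, so these lists have no such background. Solvent replicate 4 was highest and apart for the acute phase (0.852). At 0.5 mg/kg, replicate 2 was apart for interferon signalling (0.744), and replicate 3 for the acute phase (0.754), lymphocyte markers (0.792) and heterophil markers (0.717). No cause of these was tested.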

How the results depend on the processing

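The number of genes meeting the rule was 67 with TMM scaling, 194 and 46 with gaps of 1.5 and 3, and 172 against the highest of the 5 other solvent birds; it was 106 to 118 when each of the 15 other birds was left out in turn (an alternative chosen after seeing the data), and stayed between 91 and 121 with other pseudocounts and minimum levels. Genes called at 5 mg/kg numbered 3, but 6 with solvent replicate 1 included, 170 with DESeq2, and 2 to 11 leaving out single birds (11 without 5 mg/kg replicate 4, 8 without 5 mg/kg replicate 3, 7 without 0.5 mg/kg replicate 4 and 5 without 0.5 mg/kg replicate 5). At 0.5 mg/kg they numbered 1, but 0 with solvent replicate 1 included, 36 with DESeq2, and 1 to 2 leaving out single birds (2 without solvent replicate 2, 0.5 mg/kg replicate 4 or 5 mg/kg replicate 4). For the slope on RSAD2 they numbered 0, but 1 without a low-count filter, 12 with DESeq2, and 0 leaving out any bird. The cause was not tested. Genes of the set were called only by DESeq2 (2 at 5 mg/kg, 1 for the slope). Birds with the same replicate number showed little shared deviation (correlations -0.084 to 0.203, 2 of 15 pairs over 0.1). The same held for birds with the same bird number in their titles, which differs in 2 birds at 5 mg/kg (1 of 14 pairs over 0.1). Pairing by either number was thus not seen, though weak correlations over all genes cannot exclude it. With a replicate block by either number, the second chosen after seeing the data, the calls numbered 2, 1 and 0.

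Differences near 0 changed sign. With solvent replicate 1 included, RSAD2 differed by -5.51 at 5 mg/kg, and RSAD2, CMPK2 and DDX60 by -4.78, -3.93 and -3.63 at 0.5 mg/kg. At 5 mg/kg CMPK2 differed by 0.31 with a replicate block and 0.0125 with a bird number class as a term. Leaving out single birds gave -0.15 to 0.32 for RSAD2 and -0.20 to 0.28 for CMPK2 at 5 mg/kg, -0.17 to 0.49 for CMPK2 and -0.17 to 0.51 for DDX60 at 0.5 mg/kg, and -0.17 to 0.34 for the slope of DDX60, all with adjusted p over 0.05. The slope of DDX60 was -0.27 on CMPK2 in place of RSAD2, and that of LOC107322378 was 0.0071 on DDX60.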
